A study of Mus musculus with 8 samples.

Results

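The HoxC cluster is a run of 9 homeobox genes on mouse chromosome 15, from *Hoxc13* at one end to *Hoxc4* at the other (chr15:102921131-103036856 in GRCm38), all read from the same strand. These 9 genes, of 27179 with a row in the count files, were taken by symbol, and their RNA was compared between control and *Ezh2 Amhr2*-Cre cKO uteri. RNA-seq libraries came from whole uteri of mice at postnatal day 10 (PD10), with 4 control (Ctrl) and 4 cKO libraries. All 8 libraries carried the floxed *Ezh2* allele (Ezh2 f/f). The cKO libraries also carried Cre recombinase driven from *Amhr2*, listed in the labels as Acre. *Amhr2*-Cre acts in the Mullerian duct mesenchyme and in cells that descend from it, so cells of a cKO uterus outside that lineage keep *Ezh2*, and whole-uterus RNA mixes both kinds of cell.

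Hox genes encode transcription factors that give cells their position along the body axis. In each of the 4 mammalian clusters (HoxA, HoxB, HoxC and HoxD) low-numbered genes act towards the head and high-numbered genes towards the tail, and genes with the same number in different clusters are paralogs. Polycomb repressive complex 2, whose methyltransferase is EZH2, marks silent Hox genes with trimethylated histone H3 lysine 27 and is a textbook keeper of their off state. In the female tract the HoxA genes *Hoxa10* and *Hoxa11* are the known uterine Hox genes, whereas HoxC genes are better known from the spinal cord, axial skeleton and hair.

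Of the 9 HoxC genes, 7 were abundant enough to test and 4 of them rose in cKO uteri: *Hoxc10*, *Hoxc9*, *Hoxc5* and *Hoxc4*. The increases ranged from 1.83-fold in *Hoxc4* to 2.44-fold in *Hoxc9*. *Hoxc11*, next to *Hoxc10*, and *Hoxc8* and *Hoxc6*, which lie between *Hoxc9* and *Hoxc5*, had log2 fold changes of 0.57, 0.55 and 0.40 and did not pass the test. *Hoxc13* and *Hoxc12*, at the tail end of the cluster, had 0 and 1 read over all 8 libraries. No HoxC gene was lower in cKO uteri at an adjusted p under 0.05 by edgeR's quasi-likelihood test, 0 were lower at an unadjusted p under 0.05, and DESeq2 and limma-voom also gave 0. Levels are given as CPM, the reads of a gene scaled to library size by edgeR's TMM method. A gene was tested when its CPM was over 0.2 in at least 4 libraries, which left 16658 genes, and it passed when its p-value, adjusted over all of these by the Benjamini-Hochberg method, was under 0.05. A differentially expressed (DE) gene also had a fold change over 2. By these rules 4 of 7 HoxC genes were higher, where 2.62% of all genes tested were higher and 5.34% passed in either direction, and 3 of 7 were DE and higher, where 0.666% of all genes tested were. The median log2 fold change of the 7 genes was 0.88, beside 0.00044 for all genes tested. The count of 4 moved with single libraries. It was 1 without Ctrl 1, Ctrl 3, cKO 1, cKO 2 or cKO 3, it was 2 without Ctrl 2 or Ctrl 4, and it was 4 without cKO 4.

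Library totals ranged from 25287141 to 36685807 counts on genes, a 1.45-fold range, so a gene with no counts in a library could still be present at up to 0.0824 to 0.117 CPM (3 counts; counting error only). *Ezh2* RNA was 45.0 ± 8.70 CPM (SD, n = 4) in Ctrl and 36.8 ± 4.41 CPM (SD, n = 4) in cKO uteri, a log2 fold change of -0.29 (adjusted p = 0.247 by edgeR), with overlapping libraries. The counts cover the whole gene and do not isolate the floxed exons. Uterine markers were abundant in each library: the summed level of 8 uterus and Mullerian duct markers was 1747 to 1814 CPM in Ctrl and 1359 to 1687 CPM in cKO libraries. Of these 8, 3 (*Hoxa10*, *Hoxa11* and *Amhr2*) fell in cKO uteri by edgeR, where 2.71% of all genes tested were lower.

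*Hoxc10* (Entrez 209448, chr15:102966796-102971898), a posterior Hox gene known from the lumbar spinal cord and hindlimb, had the highest mean CPM of the HoxC genes in both genotypes. It was measured at 3.63, 2.67, 2.57 and 3.24 CPM in the 4 Ctrl libraries and at 6.72, 7.90, 6.41 and 8.02 CPM in the 4 cKO libraries. The lowest cKO library lay well above the highest control. The means were 3.03 ± 0.498 and 7.26 ± 0.818 CPM (SD, n = 4 per genotype), and the log2 fold change was 1.26 (standard error 0.15, 95% interval 0.94 to 1.58, adjusted p = 0.000377 by edgeR). By p-value it ranked 62 among the genes tested, on the strength of 374 reads in the controls and 846 in the cKO libraries. This call held without any single library, with adjusted p-values in edgeR from 0.000791 to 0.00219.

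*Hoxc9* (Entrez 15427, chr15:102977032-102984444), known for its part in thoracic motor neuron identity, was rare in control uteri. Its level was 0.379, 0.464, 0.464 and 0.275 CPM in Ctrl libraries and 1.20, 1.27, 0.801 and 0.560 CPM in cKO libraries. Each cKO library was above each control, and cKO 3 and cKO 4 were closest to the controls. The log2 fold change was 1.29 (standard error 0.33, 95% interval 0.57 to 2.00, adjusted p = 0.0408 by edgeR). It rests on 47 reads in the 4 controls, 10 to 13 per library, against 111 in the cKO libraries.

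*Hoxc5* (Entrez 15424, chr15:103014008-103017429) was likewise rare. It stood at 0.536, 0.348, 0.464 and 0.714 CPM in Ctrl and at 1.40, 1.54, 1.11 and 0.841 CPM in cKO libraries. The groups did not overlap, although Ctrl 4 and cKO 4 were near each other. The log2 fold change was 1.21 (standard error 0.29, 95% interval 0.59 to 1.84, adjusted p = 0.0297 by edgeR), from 65 reads in the controls and 142 in the cKO libraries. In the GENCODE M21 annotation, though not by the RefSeq coordinates given here, one *Hoxc5* transcript begins in an exon that it shares with *Hoxc10*. There 166 exon bases, or 5.37% of the *Hoxc5* exon length and 8.70% of that of *Hoxc10*, belong to both genes on the same strand. Which annotation was used for the counting and how it treated such reads are not given in the sources used here, and the part of these bases in either result was not tested.

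*Hoxc4* (Entrez 15423, chr15:103018097-103036856), at the head end of the cluster, was at 1.26, 0.967, 1.03 and 1.29 CPM in Ctrl and at 1.90, 3.05, 1.82 and 1.65 CPM in cKO libraries. Here cKO 2 stood above the other cKO libraries, which all exceeded the controls. The log2 fold change was 0.88 (standard error 0.23, 95% interval 0.37 to 1.38), a 1.83-fold increase below the 2-fold limit for a DE gene, with an adjusted p of 0.0491 by edgeR. The calls of *Hoxc9*, *Hoxc5* and *Hoxc4* were less secure than that of *Hoxc10*. *Hoxc4* lost its call without any one library other than cKO 4, reaching an adjusted p of 0.151 without cKO 2. *Hoxc5* lost it without any one library other than Ctrl 4 or cKO 4 (up to 0.0979), and *Hoxc9* without any one other than Ctrl 2 or cKO 4 (up to 0.127). Their log2 fold changes in these fits stayed between 0.64 and 1.47.

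**Figure D1:**
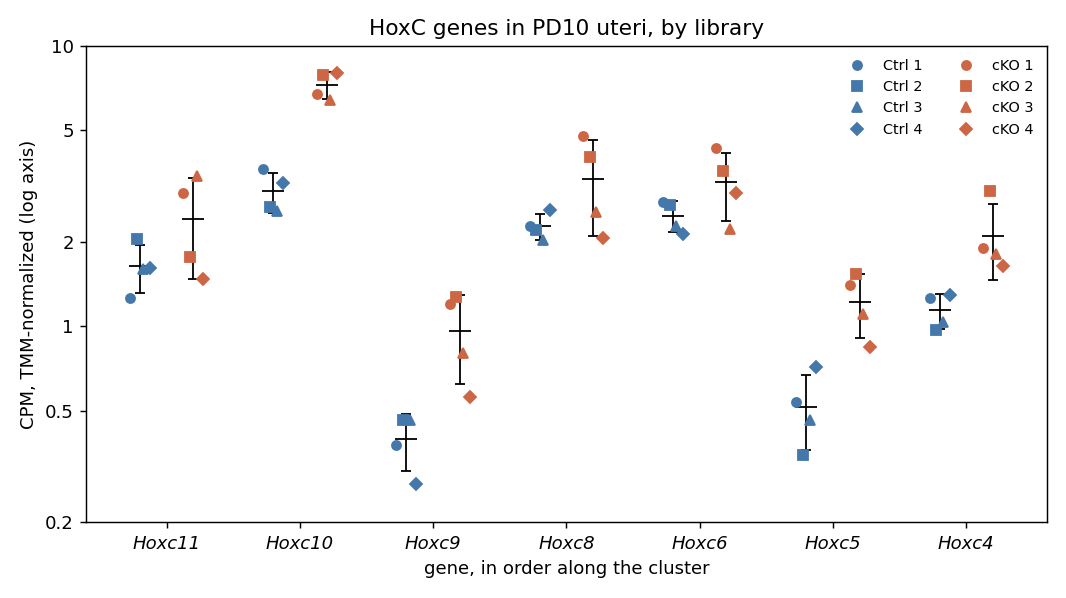
CPM (log axis) of the 7 tested HoxC genes in each of 4 Ctrl (blue) and 4 cKO (orange) libraries, with a marker shape for each replicate number and black bars for the mean ± SD. *Hoxc10*, *Hoxc9*, *Hoxc5* and *Hoxc4* show no overlap between genotypes, and *Hoxc10* reaches 6.41 to 8.02 CPM in cKO against 2.57 to 3.63 CPM in Ctrl.

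The other tested members overlapped between genotypes. *Hoxc11* (Entrez 109663, chr15:102954526-102956701) was at 1.26, 2.05, 1.61 and 1.62 CPM in Ctrl and at 2.99, 1.77, 3.45 and 1.47 CPM in cKO libraries. Its cKO libraries split, with cKO 1 and cKO 3 above all controls and cKO 2 and cKO 4 among them, and the log2 fold change of 0.57 (95% interval -0.02 to 1.16) had an adjusted p of 0.249 by edgeR. *Hoxc8* (Entrez 15426, chr15:102990539-102994275), known from brachial motor neurons, was at 2.27, 2.20, 2.03 and 2.61 CPM in Ctrl and at 4.78, 4.02, 2.56 and 2.07 CPM in cKO libraries. In this gene cKO 1 and cKO 2 were high and cKO 3 and cKO 4 were within the control range, for a log2 fold change of 0.55 (95% interval 0.02 to 1.07, adjusted p = 0.216 by edgeR). *Hoxc6* (Entrez 15425, chr15:102998226-103011882) was at 2.78, 2.71, 2.28 and 2.14 CPM in Ctrl and at 4.31, 3.58, 2.22 and 2.98 CPM in cKO libraries. Only cKO 3 was not above all controls, and the log2 fold change was 0.40 (95% interval -0.05 to 0.84, adjusted p = 0.285 by edgeR). The intervals of *Hoxc11* and *Hoxc8* include the log2 fold change of *Hoxc4* but end below those of *Hoxc10*, *Hoxc9* and *Hoxc5*, and the interval of *Hoxc6* lies wholly below that of *Hoxc10*.

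*Hoxc13* (Entrez 15422, chr15:102921131-102928814), a gene of hair and nail, had 0 reads in all 8 libraries. *Hoxc12* (Entrez 15421, chr15:102936826-102938609) had 1 read, in cKO 3. Both were under the filter, and in both genotypes they were at or under the limit that a count of 0 allows. The HoxC genes from *Hoxc11* to *Hoxc4* had reads in each library.

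A test of single genes that uses no model, the exact permutation test on log2(CPM + 0.1) over the 70 arrangements of the 8 libraries, gave its smallest possible two-sided p of 0.029 for *Hoxc10*, *Hoxc9*, *Hoxc5* and *Hoxc4*. It gave 0.2 for *Hoxc11*, 0.229 for *Hoxc8* and 0.143 for *Hoxc6*. In 4 of 7 HoxC genes every cKO library was above every control, as in 5.9% of all genes tested. At an unadjusted p under 0.05 by edgeR, 5 of the 7 HoxC genes and 3535 of the 16658 genes tested differed.

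Inside the cluster, between *Hoxc12* and *Hoxc11*, lies *Hotair* (Entrez 100503872, chr15:102944062-102947946), a long noncoding RNA read from the opposite strand. It was at 1.51, 0.851, 1.21 and 0.851 CPM in Ctrl and at 2.29, 1.54, 2.19 and 1.68 CPM in cKO libraries. The lowest cKO library lay just above the highest control, but the log2 fold change of 0.79 (standard error 0.24) did not pass the test, with an adjusted p of 0.0790 by edgeR. The microRNA genes *Mir196a-2* and *Mir615* in the cluster had 0 reads in all libraries, which were made from mRNA and are not suited to microRNAs. The 3 nearest protein-coding genes on the *Hoxc13* side, *Atf7*, *Atp5g2* and *Calcoco1*, had log2 fold changes of -0.27, -0.03 and 0.07. The 3 on the *Hoxc4* side, *Smug1*, *Cbx5* and *Hnrnpa1*, had -0.17, -0.05 and 0.10. Their adjusted p-values in edgeR lay between 0.117 for *Atf7* and 0.865 for *Atp5g2*, and all 6 fold changes were smaller in size than that of *Hoxc6*, the smallest among the HoxC genes tested. *Smug1* alone of these 6 had libraries that did not overlap, lower in cKO.

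**Figure D2:**
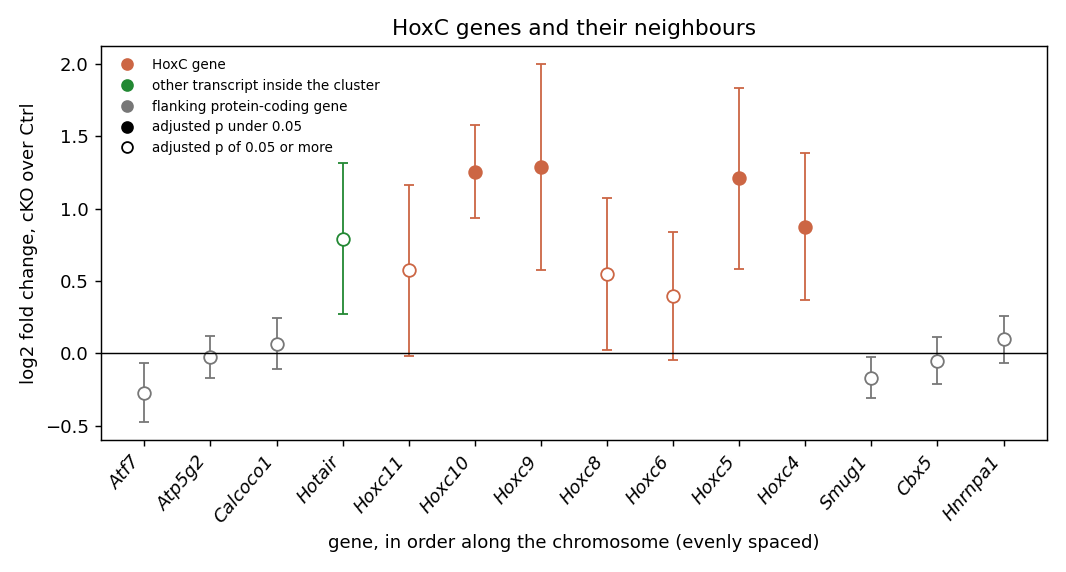
Log2 fold change (cKO over Ctrl) of the tested HoxC genes, *Hotair* and 3 protein-coding genes on each side, in chromosome order at even spacing, with 95% intervals. Filled points passed an adjusted p of 0.05. The 7 HoxC genes lie between 0.40 and 1.29 and the flanking genes between -0.27 and 0.10.

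Along the cluster, response did not follow gene order. The log2 fold changes read 0.57, 1.26, 1.29, 0.55, 0.40, 1.21 and 0.88 from *Hoxc11* to *Hoxc4*. Whether neighbours differed in response was tested on the log2 ratio of their CPM in each library, over the 6 adjacent pairs. The ratio of *Hoxc9* to *Hoxc8* was higher in cKO by 0.59 on the log2 scale, with every cKO library above every control (exact permutation p = 0.0286, adjusted p = 0.171 over the 6 pairs). It was 0.11 (p = 0.429 by the exact permutation test) with a pseudocount of 1 CPM in place of 0.1. The other 5 pairs had exact permutation p-values of 0.0857 or more. With the pseudocount of 1 CPM, the ratio of *Hoxc10* to *Hoxc9* was higher in cKO by 0.56 (exact permutation p = 0.0286), against 0.19 with 0.1 CPM. A single pair at this smallest possible p cannot pass 0.05 after adjustment over 6 pairs, and which neighbours separate depends on the pseudocount. Within a genotype, the 21 pairs of HoxC genes had a median Pearson r of 0.29 over the 8 libraries, after subtraction of group means. This ranged from -0.78 for *Hoxc10* with *Hoxc11* to 0.79 for *Hoxc4* with *Hoxc5*, and 17 of the 21 were above 0. These points share library and depth and describe these libraries alone.

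Levels of different genes were compared per kilobase (kb) of annotated exon. In Ctrl uteri the order was *Hoxc10* (1.59 ± 0.261 CPM per kb), *Hoxc6* (1.03 ± 0.130), *Hoxc11* (0.809 ± 0.160), *Hoxc8* (0.805 ± 0.0851), *Hoxc4* (0.443 ± 0.0630), *Hoxc5* (0.167 ± 0.0496) and *Hoxc9* (0.163 ± 0.0370; SD, n = 4 each). *Hoxc10* stood above *Hoxc6* in each Ctrl library, as did *Hoxc6* above *Hoxc11*, *Hoxc8* above *Hoxc4* and *Hoxc4* above *Hoxc5*. The order of *Hoxc8* with *Hoxc6* and with *Hoxc11* changed between Ctrl libraries, and so did that of *Hoxc5* and *Hoxc9*. In cKO uteri the means kept this order, from 3.80 ± 0.428 CPM per kb for *Hoxc10* to 0.395 ± 0.139 for *Hoxc9*. There the ranges of *Hoxc6*, *Hoxc11*, *Hoxc8* and *Hoxc4* overlapped. The order depends on annotated untranslated sequence: per kb of coding sequence *Hoxc6* came first in Ctrl uteri at 3.51, before *Hoxc8* at 3.14 and *Hoxc10* at 2.95.

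HoxC was the least abundant of the 4 clusters in both genotypes. The summed level of its genes was between 4.55 and 5.30 CPM per kb in the 4 Ctrl libraries and 10.2, 10.1, 8.31 and 8.04 CPM per kb in the cKO libraries, and every cKO library lay above every control. This was 1.42% of the sum over the 4 clusters in Ctrl and 3.01% in cKO uteri. HoxA summed to 178.8 ± 9.40 and 127.8 ± 11.9 CPM per kb (SD, n = 4), HoxD to 115.4 ± 6.58 and 105.9 ± 8.06, and HoxB to 54.2 ± 3.49 and 61.6 ± 4.12. All HoxC genes together remained far below *Hoxa10* alone, which was at 97.8 CPM per kb in Ctrl and 63.7 CPM per kb in cKO uteri.

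Paralogs of the HoxC genes moved in different ways. In group 10, *Hoxc10* rose while *Hoxa10*, a gene needed for uterine identity and implantation, fell by 0.62 on the log2 scale (adjusted p = 0.000377 by edgeR), and *Hoxd10* fell by 0.26 (adjusted p = 0.0395 by edgeR). *Hoxa10* went from 320.0 to 208.4 CPM and *Hoxd10* from 95.5 to 79.7 CPM. The share of *Hoxc10* among the 3 group 10 genes, per kb, was 1.16%, 0.904%, 0.910% and 1.19% in Ctrl and 3.52%, 3.58%, 2.88% and 3.69% in cKO libraries. The homeobox, the 180 bases that encode the DNA-binding homeodomain, shows how alike and how distinct these opposite-moving paralogs are. Each line gives one homeobox in GRCm38, 5′ to 3′ on the gene's own strand, and capitals mark bases that differ from *Hoxc10*.

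Hoxc10 (chr15:102970848-102971027, plus strand): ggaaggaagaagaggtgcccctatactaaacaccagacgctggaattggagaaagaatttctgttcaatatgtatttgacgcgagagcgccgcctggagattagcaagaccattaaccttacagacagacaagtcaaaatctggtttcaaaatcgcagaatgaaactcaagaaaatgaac
Hoxa10 (chr6:52232554-52232733, minus strand): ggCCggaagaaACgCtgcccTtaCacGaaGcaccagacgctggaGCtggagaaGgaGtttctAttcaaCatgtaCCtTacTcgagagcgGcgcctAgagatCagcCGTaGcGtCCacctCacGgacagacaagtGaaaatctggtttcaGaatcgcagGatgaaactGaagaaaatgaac
Hoxd10 (chr2:74694141-74694320, plus strand): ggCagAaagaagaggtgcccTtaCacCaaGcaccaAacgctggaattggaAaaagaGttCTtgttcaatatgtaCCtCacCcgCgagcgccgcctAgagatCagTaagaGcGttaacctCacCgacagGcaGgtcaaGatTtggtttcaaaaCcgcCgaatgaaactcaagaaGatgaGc

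*Hoxa10* differed from *Hoxc10* at 35 of these 180 bases (80.6% identity) and *Hoxd10* at 31 (82.8% identity), and the longest identical runs were 14 and 16 bases. Over whole transcripts, *Hoxc10* shared no stretch of 50 bases with *Hoxa10* or *Hoxd10*; its 119 shared windows of that length, 6.40% of its own, were all with *Hoxc5*, in the exon described above. *Hoxc9* shared 3 such windows, 0.127% of its own, with *Hoxb6* or *Hoxb9*. The other members shared none with a Hox gene. Counting every annotated gene, *Hoxc9* shared 34 windows (1.44% of its own) and *Hoxc8* shared 12 (0.432%).

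In group 9, *Hoxa9*, *Hoxb9* and *Hoxd9* had log2 fold changes of 0.11, 0.24 and -0.03, and their adjusted p-values in edgeR were 0.207 or more. In group 5, *Hoxa5* rose by 1.53 (adjusted p = 0.00121 by edgeR), more than *Hoxc5* in the point estimate, and *Hoxb5* had 0.42 (adjusted p = 0.138). In group 4, *Hoxa4*, *Hoxb4* and *Hoxd4* had 1.01, 0.33 and 0.28, and their adjusted p-values in edgeR were 0.0748 or more. The difference in response itself was tested for 16 pairs of a HoxC gene and a paralog, on log2 ratios within each library. The ratio of *Hoxc10* to *Hoxa10* was higher in cKO by 1.86 on the log2 scale, from -6.69 ± 0.213 to -4.83 ± 0.172 (SD, n = 4), and that of *Hoxc10* to *Hoxd10* by 1.50. The ratio of *Hoxc9* was higher by 0.95 to *Hoxa9*, by 0.83 to *Hoxb9* and by 1.09 to *Hoxd9*. That of *Hoxc11* was higher by 0.97 to *Hoxa11* and by 1.02 to *Hoxd11*, both of which fell. The ratio of *Hoxc6* to *Hoxa6*, which rose, was lower in cKO by a log2 difference of -1.05. In each of these 8 pairs the libraries of the genotypes did not overlap (exact permutation p = 0.0286, the smallest possible). The adjusted p over the 16 pairs was 0.0571, so 0 pairs passed 0.05 after adjustment. With 8 of 16 pairs at this smallest p, none of them could pass, however large its difference. With a pseudocount of 1 CPM in place of 0.1, the differences for *Hoxc6* to *Hoxa6* and *Hoxc9* to *Hoxa9* were -0.33 and 0.37, with exact permutation p-values of 0.114 and 0.0571. Those for *Hoxc9* to *Hoxb9* and to *Hoxd9* were 0.26 and 0.51, still without overlap, and those for *Hoxc10* to *Hoxa10* and *Hoxd10* were 1.66 and 1.30. For *Hoxc4* and *Hoxc5* the ratios to *Hoxa4* and *Hoxa5* differed by -0.06 and -0.35, with exact permutation p-values of 0.8 and 0.0857. The ratio of *Hoxc4* to *Hoxb4* and *Hoxd4* differed by 0.48 and 0.58 (exact permutation p = 0.0571 each) and that of *Hoxc5* to *Hoxb5* by 0.68 (exact permutation p = 0.143). With the pseudocount of 1 CPM the difference for *Hoxc5* to *Hoxa5* was -0.55, at the smallest possible exact permutation p of 0.0286.

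**Figure D3:**
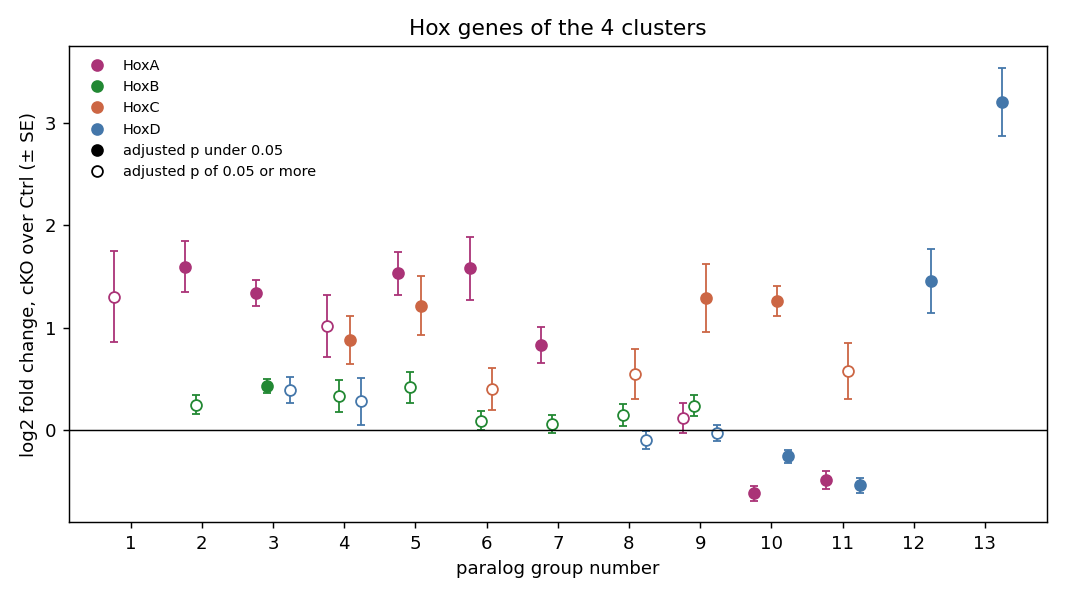
Log2 fold change (cKO over Ctrl) ± SE of each tested Hox gene by paralog group number, coloured by cluster; filled points passed an adjusted p of 0.05. In group 10 *Hoxc10* lies at 1.26 while *Hoxa10* and *Hoxd10* lie at -0.62 and -0.26, and in group 5 *Hoxa5* and *Hoxc5* lie at 1.53 and 1.21.

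Counted by cluster, 5 of 10 tested HoxA genes rose and 2 fell, 1 of 8 HoxB genes rose, and 2 of 8 HoxD genes rose and 2 fell, by edgeR. Median log2 fold changes were 1.16, 0.24 and 0.12, against 0.88 for HoxC. The share of tested members that was higher was thus 4 of 7 in HoxC and 5 of 10 in HoxA, and the difference between clusters was not tested. Of all genes tested, 2.62% were higher and 2.71% were lower. Hox proteins bind DNA with partners of the TALE homeodomain class. Of 9 such cofactor genes, *Meis1* rose by 0.26 on the log2 scale (adjusted p = 0.0179), while *Pknox1* fell by 0.25 (adjusted p = 0.0258) and *Pknox2* fell by 0.43 (adjusted p = 0.00515), by edgeR. Among the polycomb genes, *Bmi1*, a subunit of polycomb repressive complex 1, rose by 0.85 on the log2 scale (adjusted p = 1.48e-05 by edgeR). The 9 trithorax and H3K27 demethylase genes, which oppose polycomb, had log2 fold changes from -0.15 to 0.17 and adjusted p-values in edgeR of 0.231 or more.

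Some markers of other tissues also differed between genotypes. The summed level of 10 fat cell markers, *Adipoq* and *Fabp4* among them, was 2.59, 4.49, 4.64 and 2.72 CPM in Ctrl and 101.1, 231.8, 110.5 and 4.76 CPM in cKO libraries. Of these markers 7 were tested, all 7 had log2 fold changes above 0, and 1, *Adrb3*, passed. The library cKO 4 was close to the controls in fat markers. It was above every control in 5 of the 7 HoxC genes, and it had the highest *Hoxc10* of all 8 libraries. In *Hoxc9*, *Hoxc5* and *Hoxc4* it was the lowest of the cKO libraries, although above every control, and in *Hoxc8* and *Hoxc11* it was within the control range. The fat score was 2.24, 3.16 and 2.14 in cKO 1, cKO 2 and cKO 3. It was -1.67 in cKO 4, within the Ctrl range of -1.95 to -1.28. With this score as a covariate the genotype effect rests mainly on cKO 4, so that fit and the next one are not independent. In that edgeR fit the log2 fold change was 1.39 for *Hoxc10* (standard error 0.21, adjusted p = 0.0144), 0.72 for *Hoxc5* (0.753 as adjusted p), 0.47 for *Hoxc4* (0.835 as adjusted p) and 0.46 for *Hoxc9* (0.911 as adjusted p). With cKO 4 as the single cKO library against the 4 controls it was 1.41 for *Hoxc10* (adjusted p = 0.0644), 0.68 for *Hoxc5*, 0.53 for *Hoxc4* and 0.53 for *Hoxc9*, where that library is assumed to vary like the controls.

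Skeletal muscle markers summed to 44.9 to 76.3 CPM in Ctrl and 40.9 to 65.6 CPM in cKO libraries, most of it *Acta1*, and *Myh3* and *Tnnt3* were higher in cKO uteri. *Myog* and *Myod1*, the defining transcription factors of skeletal muscle, were under the filter, with 0 to 1 and 0 reads per Ctrl library and 6 to 35 and 4 to 7 reads per cKO library. The skeletal muscle score, the mean log2 CPM of these markers, lay between -1.40 and -0.97 in Ctrl and between -0.66 and 0.44 in cKO libraries. It separated the genotypes, so with it as a covariate the genotype and the score cannot be told apart well. In that fit the log2 fold change of *Hoxc10* was 1.25 with a standard error of 0.32, and it did not pass (adjusted p = 0.196 by edgeR). The log2 fold change was 0.93 for *Hoxc5* (0.619 as adjusted p), 0.64 for *Hoxc4* (0.696 as adjusted p) and 0.55 for *Hoxc9* (0.807 as adjusted p), and 11 genes in all were higher. The stroma markers summed to 8077 to 10578 CPM in Ctrl and 9780 to 12546 CPM in cKO libraries, which overlapped. Of these 6 markers 5 had log2 fold changes above 0, and 1, *Col3a1*, passed (0.36), whereas *Pdgfra* had -0.13. The nerve and Schwann cell markers summed to 20.9 to 24.1 and 25.4 to 32.7 CPM, without overlap. All 5 of them had log2 fold changes above 0, and 1, *Sox10*, passed (0.92). Smooth muscle markers, at 6833 to 8714 and 7634 to 8597 CPM, and epithelial markers, at 1045 to 1275 and 1202 to 1459 CPM, overlapped between genotypes, as stroma markers did. So did the summed markers of stratified squamous epithelium (23.0 to 37.6 and 35.6 to 54.7 CPM), urothelium (8.12 to 20.4 and 17.7 to 23.9 CPM), mesothelium, endothelium, and blood cells and macrophages. The part of stromal, nerve and skeletal muscle RNA in the HoxC result was not tested beyond the values above. In whole-uterus RNA, more cells that express a HoxC gene and more RNA of it per cell cannot be told apart.

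**Figure D4:**
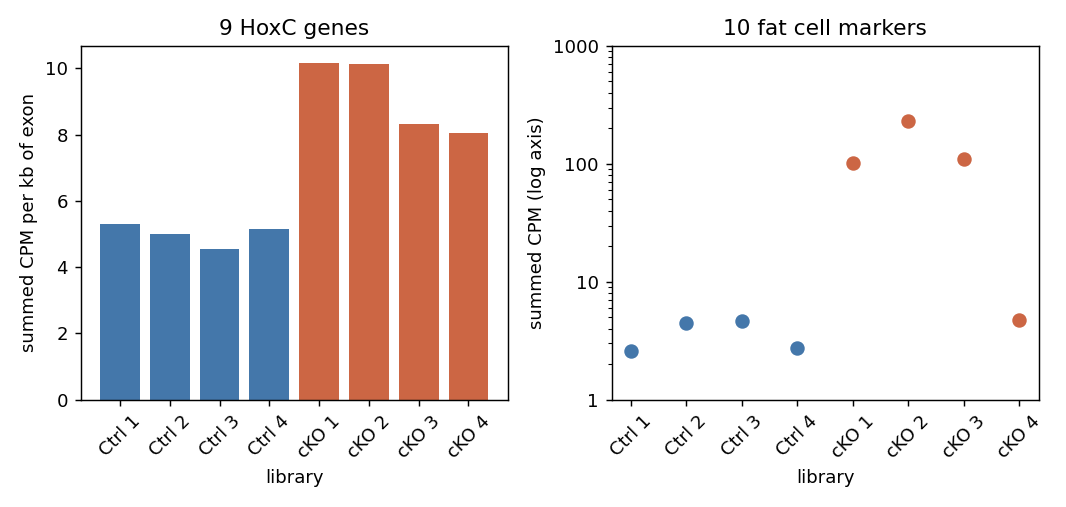
Left, summed CPM per kb of exon of the 9 HoxC genes in each library, with bars from 0. Right, summed CPM of 10 fat cell markers on a log axis. The library cKO 4 has 8.04 CPM per kb of HoxC RNA, above the 4.55 to 5.30 of the controls, and 4.76 CPM of fat markers, next to the highest control at 4.64.

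The average HoxC pattern was taken as the mean of the 7 genes' standardized levels in each library, and 14269 other genes were ranked by their Pearson r with it over the 8 libraries. The 5 most alike were *Gm4673* (r = 0.996), *Pcolce* (0.988), *Slc7a10* (0.985), *Adam33* (0.985) and *Xrcc3* (0.984). The HoxC mean itself was higher in every cKO library than in every control, so that genes alike in pattern are higher in cKO uteri by the way they were chosen, and the r values describe these libraries without a test.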

How the data were processed

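Per the labels, RNA came from whole uteri and was made into TruSeq stranded mRNA libraries. The authors deposited raw read counts per Entrez gene, which featureCounts made from reads trimmed by Trimmomatic and placed on GRCm38 by HISAT2. The annotation release, the strand setting and the treatment of shared reads are not given in the sources used here, which leaves overlapping and antisense genes uncertain. A further deposited table, the authors' edgeR comparison, holds log2 fold changes, log2 CPM, F statistics and raw and adjusted p-values; of it, only the gene symbols were used.

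The counts were tested with R 4.3.3 and edgeR 4.0.16 (TMM, glmQLFTest with robust = TRUE, 16658 genes). The standard error is the absolute log2 fold change over the root of the F statistic. The exact test is two-sided over 70 arrangements. The lists of Hox genes, cofactors, polycomb and trithorax genes and cell type markers were chosen with earlier results of these data known. The genes named are the 9 HoxC genes, transcripts inside the cluster, 3 flanking genes a side, same-number paralogs of called genes, cofactors and markers that moved, and the 5 genes most alike in pattern; further Hox and polycomb genes were named after their values were seen. Not every polycomb gene is reported here. Lengths are GENCODE M21 exon lengths, since the RefSeq table planned for this gives no exon length; coordinates are from RefSeq (GRCm38.p6). Homeoboxes were found by translating GENCODE M21 transcripts and aligning them on a conserved motif. Tested on simulated counts, edgeR recovered 200 of 200 genes changed 3-fold, with 5 false calls. The called HoxC genes changed less, by 1.83- to 2.44-fold, and recovery at changes of that size was not simulated. No 2 libraries agreed within sampling noise. The p-values measure the spread between these libraries. Alternatives used limma 3.58.1, DESeq2 1.42.0, other normalizations and filters, covariates and fewer libraries; edgeR with legacy = FALSE was chosen after seeing the data.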

Additional observations from a re-analysis of the deposited data

How the results depend on the processing

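The number of HoxC genes that were higher in cKO uteri, 4 in the report, and the number that were DE, 3 in the report, were the same under RLE, upper quartile, TMMwsp and total-count scaling, DESeq2, edgeR's likelihood ratio test, filterByExpr and no filter. They were 2 higher with limma-voom, and 2 higher and 1 DE with a filter of CPM over 1, which leaves out *Hoxc5* and *Hoxc9*. With the fat score as a covariate 1 was higher and 1 DE, and the median over the 7 genes was 0.46. With the skeletal muscle score, or cKO 4 as the single cKO library, 0 were higher and 0 DE. Without one library each, between 1 and 4 were higher and between 1 and 3 DE. HoxC genes lower in cKO uteri stayed at 0 in all 24 alternatives. *Hoxc10* passed in 23 of 25 alternatives and *Hoxc4* in 11; *Hoxc4* had an adjusted p of 0.0507 with robust = FALSE and 0.0533 with legacy = FALSE, in edgeR. Signs turned for *Hoxc8* with the fat score (-0.10), the skeletal muscle score (-0.29) and cKO 4 alone (-0.14), for *Hoxc6* with the skeletal muscle score (-0.46), and for *Hoxc11* with cKO 4 alone (-0.14). The difference of *Hoxc4* and *Hoxa4* turned with a pseudocount of 1 CPM (0.20) and without Ctrl 1 or cKO 1; it lay between -0.25 and 0.05 without one library. That of *Hoxc10* and *Hoxc9* turned without cKO 4, and lay between -0.070 and 0.35. The cause was not tested. Over all genes, DE genes numbered 217 by the test used in the report, 38 with the fat score, 10 with the skeletal muscle score and 357 without cKO 4. The low read counts of *Hoxc9* and *Hoxc5* limit their precision.

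The labels number the libraries 1 to 4 in both genotypes. With the number as a replicate block in edgeR, 3 HoxC genes were higher and 3 DE, and *Hoxc4* had an adjusted p of 0.0511. Same-numbered libraries had correlations of 0.0236, 0.113, -0.00354 and 0.194, and 1 of the 4 numbers gave the best partner, so the numbers were not taken as pairs.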
